A study of Mus musculus with 29 samples.

Results

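The cytosolic sulfotransferases described here are 6 enzymes, Sult2a8, Sult1e1, Sult1b1, Sult1a1, Sult1d1 and Sult5a1, followed in mouse liver after the bile duct was tied. They are members of a named gene family, picked with earlier results of these data known, and each has 1 row on the array. They are 6 of 22180 genes with a row, and all 6 were among the 14699 genes tested. A gene was tested where its log2 value exceeded 5 in at least 3 arrays.

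Whole livers of male C57BL/6N mice aged 8 to 10 weeks, all marked wt in the labels and fed a standard diet, were hybridised to 29 Affymetrix arrays, and by their titles each array is a mouse of its own. In bile duct ligation (BDL) the common bile duct outside the liver was tied, and 5 livers each were taken at days 1, 3, 7 and 21. Sham-operated mice supplied the controls: 3 livers for day 1, 2 for day 3 and 4 for day 7. For day 21 no sham array was analysed here, so BDL day 21 was compared with sham day 7, where the later time and the ligation cannot be told apart.

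Cytosolic sulfotransferases transfer a sulfonate group from the donor 3'-phosphoadenosine 5'-phosphosulfate (PAPS) to small molecules such as steroids, bile acids, phenols and catecholamines. The conjugates are more soluble in water and leave the cell through export pumps. In cholestasis bile acids build up in the liver, and sulfonation is one of the ways in which they are made less toxic.

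The 6 genes lie on 3 chromosomes. Sult1b1, Sult1d1 and Sult1e1 are consecutive protein-coding genes on chromosome 5 in RefSeq's mouse annotation (GRCm38.p6). Sult2a8 lies on chromosome 7 between Sult2a6 and Sult2a7, within a cluster of closely related copies, so signal of its row could in part come from a copy. Sult1a1 lies elsewhere on chromosome 7, and Sult5a1 on chromosome 8. The regions of 250 bases before the start sites of the 3 members that moved most are printed because these genes went in opposite directions: Sult2a8 and Sult5a1 fell and Sult1e1 rose. All are read 5′ to 3′ on the minus strand of GRCm38.p6, from RefSeq, at chr7:14446588-14446837 and chr7:14438552-14438801 for the 2 starts of Sult2a8, chr5:87591612-87591861 for Sult1e1 and chr8:123158281-123158530 for Sult5a1. Capitals mark a match on either strand to AGGTCA, the half-site bound by many nuclear receptors, or to TATAAA, the core of a TATA box.
Sult2a8, first start: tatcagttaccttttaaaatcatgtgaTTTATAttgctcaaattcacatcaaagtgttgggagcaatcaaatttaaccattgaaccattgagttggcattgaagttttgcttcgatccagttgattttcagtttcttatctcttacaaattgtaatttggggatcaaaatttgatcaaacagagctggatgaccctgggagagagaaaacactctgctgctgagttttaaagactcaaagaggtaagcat
Sult2a8, second start: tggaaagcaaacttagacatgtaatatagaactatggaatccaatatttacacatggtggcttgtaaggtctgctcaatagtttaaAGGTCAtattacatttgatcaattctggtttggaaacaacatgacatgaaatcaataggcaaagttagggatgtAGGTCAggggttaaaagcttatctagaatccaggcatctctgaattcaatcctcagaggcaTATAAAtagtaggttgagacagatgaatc
Sult1e1: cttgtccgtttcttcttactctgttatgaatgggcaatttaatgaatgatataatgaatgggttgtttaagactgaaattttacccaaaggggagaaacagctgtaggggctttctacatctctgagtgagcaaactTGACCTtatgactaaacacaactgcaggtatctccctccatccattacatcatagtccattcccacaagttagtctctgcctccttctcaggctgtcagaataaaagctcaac
Sult5a1: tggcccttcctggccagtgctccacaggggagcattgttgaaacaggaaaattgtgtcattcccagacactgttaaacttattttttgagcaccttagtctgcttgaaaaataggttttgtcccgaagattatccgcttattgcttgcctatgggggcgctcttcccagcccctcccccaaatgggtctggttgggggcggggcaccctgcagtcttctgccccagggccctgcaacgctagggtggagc
Sult2a8 had AGGTCA at 164 and 90 bases and TATAAA at 29 bases before its second start, and TATAAA on the reverse strand 223 bases before its first start. Sult1e1 had AGGTCA on the reverse strand (TGACCT) 113 bases before its start, as had Sult1b1 at 123 bases before its first start. No match to either motif stood in these windows of Sult5a1, Sult1a1 or Sult1d1. TTCNNNGAA, the element bound by STAT factors, matched in none of the 6 genes' windows. Of 32851 promoter windows of the same length, 14% held AGGTCA, 12.4% TATAAA and 7.02% TTCNNNGAA. These matches describe letters and are not shown to be bound.

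Before the results, 3 features of the arrays bear on them. Of the day 1 arrays, 4 stood apart (BDL replicates 2 and 3, sham replicates 1 and 3): the SD of log2 values over genes was 2.03 to 2.04 on them and 2.09 to 2.18 on the other 25, and the mean of 74 small nucleolar RNA genes was 8.83 to 9.28 on them against 7.59 to 8.37. BDL day 21 replicate 1 carried intestinal messages. Sis (sucrase-isomaltase) stood at 7.06 and Alpi (intestinal alkaline phosphatase) at 9.35 on it, against at most 3.54 and 5.68 on the other 28 arrays. Of 5 enterocyte markers, Fabp2 (8.10) and Lct (5.14) did not exceed the highest of the other arrays. Leaving this array out changed no call of the 6 enzymes at day 21. Sham day 7 replicate 1 carried collagen messages at the level of BDL livers. Col1a1, a chain of fibrillar collagen, stood at 10.43 on it, against 9.22 to 9.99 in BDL day 7 and 5.80 to 7.38 on the other 8 sham arrays. The mean of 6 stellate cell markers was 8.35 on it and 6.24 to 6.95 on those 8. This array is among the controls of days 7 and 21.

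The mean of 9 hepatocyte markers lay between 13.1 and 13.4 on BDL arrays and between 13.2 and 13.4 on sham arrays, but single genes were lower in BDL. Of the 9, 1 was called lower at day 1, 2 at day 3, 3 at day 7 and 2 at day 21, and 0 higher. They were Ttr, Apoa2 and Serpina1c, by at most 0.35 on the log2 scale. Of all genes tested, 4.80%, 3.69%, 4.97% and 7.90% were called lower at days 1, 3, 7 and 21. The shares called higher were 8.52%, 6.47%, 14.2% and 17.3%. Markers of other cell types moved with ligation. The mean of 8 macrophage markers was 7.37 to 9.43 on BDL arrays and 7.12 to 7.57 on sham arrays, and that of 7 cholangiocyte markers 5.82 to 7.09 and 5.32 to 5.84. Of the 8 macrophage markers, 4 were called higher and 1 lower at day 1, 4 higher and 0 lower at day 3, and 8 higher at days 7 and 21. At day 1 the mean of Clec4f was 8.44 in BDL and 9.15 in sham, and that of Marco 9.50 and 7.51. Of 6 cholangiocyte markers tested, 2 were called higher at day 1, 5 at day 3 and 6 at days 7 and 21. Of 6 stellate cell markers, with a mean of 6.07 to 8.90 on BDL arrays and 6.24 to 8.35 on sham arrays, 0 were called higher at day 1, 1 at day 3 and 5 at days 7 and 21. Of 4 neutrophil markers tested, 3 were called higher at days 1, 7 and 21 and 0 at day 3. The mean of the 5 neutrophil markers listed was 4.69 to 5.99 on BDL arrays and 4.52 to 4.85 on sham arrays. Of these lists, 1 neutrophil gene stayed under the filter level on all arrays. Their part in the results was not tested. In whole liver, fewer cells of a type and less RNA per cell cannot be told apart.

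**Figure D1:**
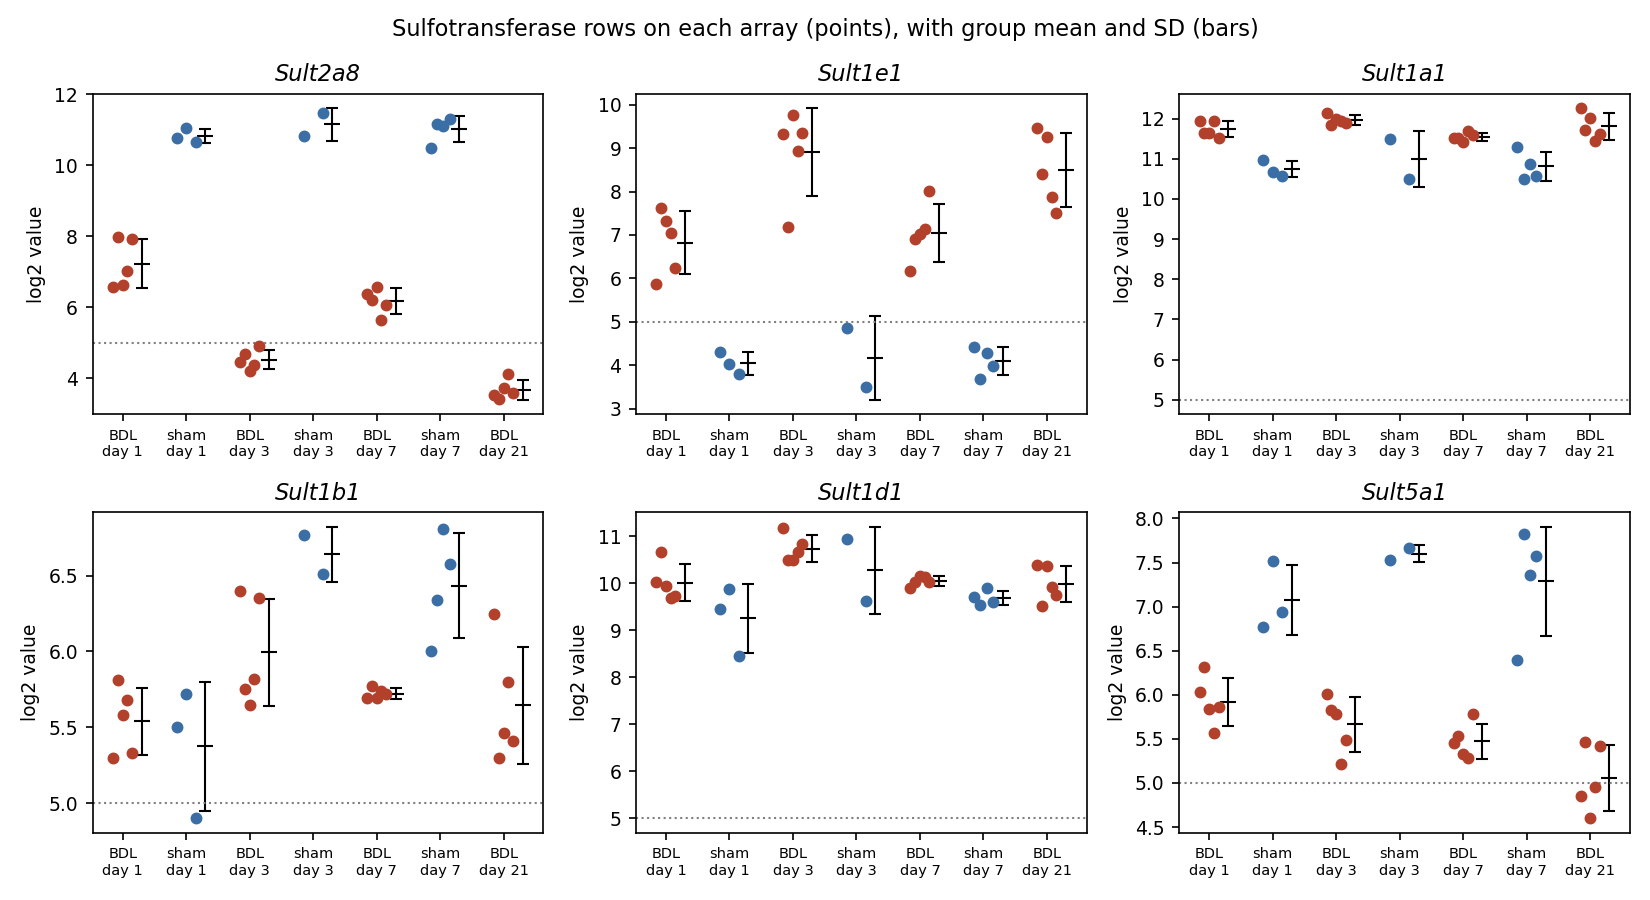
Log2 value of each sulfotransferase on every array (points), by day with BDL left of sham; bars are group means with SD and the dotted line is the filter level of 5. Sult2a8 and Sult5a1 lie lower in BDL and Sult1e1 and Sult1a1 higher on every day.

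Sult2a8, which in mice sulfonates bile acids in the liver, was the member that fell most. At day 1 its log2 values were 6.58, 7.97, 6.64, 7.03 and 7.94 in BDL livers, against 10.78, 11.05 and 10.66 in sham livers. At day 3 they were 4.47, 4.68, 4.21, 4.39 and 4.91 in BDL livers, against 10.83 and 11.48 in sham livers. At day 7 they were 6.39, 6.20, 6.59, 5.64 and 6.08 in BDL livers, against 10.49, 11.17, 11.11 and 11.30 in sham livers. The groups did not overlap on any day, and all day 3 BDL livers were under the filter level. A value under it is treated here as not told apart from background, though the level of background was not examined. The 5 BDL livers of day 21 were there too, at 3.53, 3.42, 3.73, 4.14 and 3.59.

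Sult2a8 was 12.1-fold lower in BDL at day 1 (log2 fold change -3.60 ± 0.27 SE, limma's adjusted p = 1.36e-09). At day 7 it was 28.6-fold lower (-4.84 ± 0.25, adjusted p = 1.97e-13 in limma). At day 3 the least size of the fall was 6.16 on the log2 scale, the step between the sham mean and the filter level (fitted -6.62 ± 0.31, limma adjusted p = 1.71e-14). Here and below, a least size is a step from a group mean to the filter level and carries no sampling error. The 95% interval of the fitted day 3 fall was -7.27 to -5.98. At day 21 against sham day 7 the least size was 6.02 (fitted -7.33 ± 0.25, limma adjusted p = 3.22e-18).

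The fall of Sult2a8 was not even in time. Group means in BDL were 7.23 ± 0.68 at day 1, 4.53 ± 0.27 at day 3, 6.18 ± 0.36 at day 7 and 3.68 ± 0.28 at day 21 (SD, n = 5 each), against 10.83 ± 0.20 (n = 3), 11.16 ± 0.46 (n = 2) and 11.02 ± 0.36 (n = 4) in sham at days 1, 3 and 7. Within BDL it fell at day 3 relative to day 1 (-2.70 ± 0.24, limma adjusted p = 4.00e-08), was higher at day 7 than at day 3 (1.65 ± 0.24, limma adjusted p = 0.000138) and fell again at day 21 relative to day 7 (-2.50 ± 0.24, limma adjusted p = 2.41e-07). Since day 3 and day 21 lie under the filter level, the least sizes of these 3 steps are 2.23, 1.18 and 1.18. Days 3 and 21 are therefore not ordered, and the arrays of days 1 and 7 met at 6.58 and 6.59. The sham groups overlapped, with -0.18 ± 0.29 for day 1 against day 7 (limma adjusted p = 0.746). The effect of BDL was larger at day 3 than at day 1 by -3.02 ± 0.42 (limma's adjusted p for the difference = 0.000999), a size that also rests on values under the filter level. For day 7 minus day 1 the difference was -1.24 ± 0.37, which missed the threshold (limma adjusted p = 0.0548).

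Sult1e1, the estrogen sulfotransferase, which inactivates estrogens, went the other way. At day 1 its log2 values were 5.88, 7.62, 7.32, 7.05 and 6.25 in BDL livers, against 4.30, 4.03 and 3.79 in sham livers. At day 3 they were 9.33, 7.19, 9.77, 8.93 and 9.35 in BDL livers, against 4.86 and 3.49 in sham livers. At day 7 they were 6.16, 6.90, 7.03, 7.13 and 8.01 in BDL livers, against 4.43, 3.69, 4.28 and 3.99 in sham livers. Every sham liver was under the filter level and every BDL liver above it. The BDL livers of day 21 had 9.47, 8.40, 9.25, 7.88 and 7.50.

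Because the sham livers are treated as not told apart from background, the rise of Sult1e1 is given as a least size from the BDL mean. This was 1.82 on the log2 scale at day 1 (fitted 2.78 ± 0.49, limma adjusted p = 0.000251) and 3.91 at day 3 (fitted 4.74 ± 0.56, limma adjusted p = 2.03e-06). It was 2.05 at day 7 (fitted 2.95 ± 0.45, limma adjusted p = 1.87e-05) and 3.50 at day 21 against sham day 7 (fitted 4.40 ± 0.45, limma adjusted p = 2.33e-08). The lower 95% limits of the fitted rises were 1.78, 3.59, 2.03 and 3.48 at days 1, 3, 7 and 21. Leaving out the 4 day 1 arrays that stood apart keeps 3 BDL arrays and 1 sham array of day 1. The spread then comes from the other groups, and that lone sham array is assumed to vary like them, here and wherever those 4 are left out below. The day 1 difference was then 2.36 and lost its call (limma adjusted p = 0.0993). Within those 4 arrays it was 3.42 (limma adjusted p = 0.000149).

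Sult1e1 means in BDL were 6.82 ± 0.73 at day 1, 8.91 ± 1.01 at day 3, 7.05 ± 0.66 at day 7 and 8.50 ± 0.85 at day 21 (SD, n = 5 each), against 4.04 ± 0.26 (n = 3), 4.17 ± 0.97 (n = 2) and 4.10 ± 0.33 (n = 4) in sham at days 1, 3 and 7. It was higher at day 3 than at day 1 of BDL (2.09 ± 0.42, limma adjusted p = 0.00132) and lower at day 7 than at day 3 (-1.87 ± 0.42, limma adjusted p = 0.00730), though in both pairs of days the arrays overlapped because of the low BDL day 3 replicate 2. The step between days 21 and 7 was 1.45 ± 0.42 and did not pass (limma adjusted p = 0.126). Neither did the day 3 effect minus the day 1 effect (1.96, limma adjusted p = 0.319). In the order of levels, days 3 and 21 stood above days 7 and 1, and the arrays of neighbouring days overlapped. In mice Sult1e1 is also found in fat. Of 5 adipocyte markers, 2 stayed under the filter level on all arrays, and their mean level was 4.14 to 5.15 on BDL arrays and 4.37 to 5.39 on sham arrays.

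**Figure D2:**
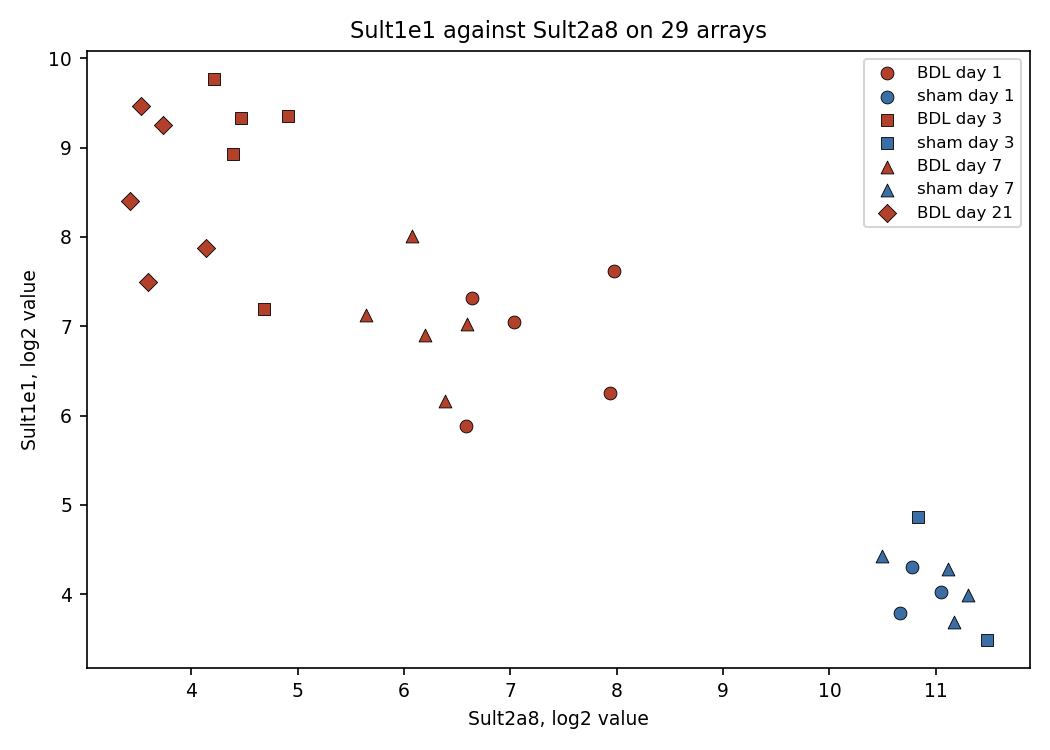
Log2 value of Sult1e1 (vertical axis) against that of Sult2a8 (horizontal axis) on the 29 arrays, BDL in red and sham in blue, with a symbol per day. All 20 BDL arrays have Sult2a8 at or under 7.97 and Sult1e1 at or above 5.88, and all 9 sham arrays have Sult2a8 at or above 10.49 and Sult1e1 at or under 4.86.

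Sult2a8 and Sult1e1 mirrored each other in these group means: days 3 and 21 held the lowest Sult2a8 and the highest Sult1e1 levels, and days 1 and 7 lay nearer to sham in both genes. The plot of one gene against the other shows no array between the sham and the BDL livers.

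Sult5a1, a sulfotransferase whose substrates are little known, fell as well. At day 1 its log2 values were 6.03, 6.31, 5.84, 5.57 and 5.86 in BDL livers, against 6.77, 7.52 and 6.94 in sham livers. At day 3 they were 6.01, 5.83, 5.78, 5.21 and 5.49 in BDL livers, against 7.53 and 7.67 in sham livers. At day 7 they were 5.45, 5.53, 5.33, 5.28 and 5.78 in BDL livers, against 6.40, 7.82, 7.36 and 7.57 in sham livers. The groups did not overlap on these days. At day 21 the BDL livers had 4.85, 5.47, 4.60, 4.95 and 5.42, of which 2 were above the filter level.

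Sult5a1 was 2.22-fold lower in BDL at day 1 (log2 fold change -1.15 ± 0.24, limma adjusted p = 0.00176) and 3.84-fold lower at day 3 (-1.94 ± 0.28, limma adjusted p = 2.90e-05). It was 3.52-fold lower at day 7 (-1.82 ± 0.22, limma adjusted p = 1.03e-06) and 4.69-fold lower at day 21 against sham day 7 (-2.23 ± 0.22, limma adjusted p = 1.86e-08). The day 21 size rests in part on BDL values under the filter level. Its BDL means were 5.92 ± 0.27, 5.66 ± 0.32, 5.47 ± 0.20 and 5.06 ± 0.38 at days 1, 3, 7 and 21 (SD, n = 5 each), against 7.07 ± 0.39 (n = 3), 7.60 ± 0.10 (n = 2) and 7.29 ± 0.62 (n = 4) in sham at days 1, 3 and 7. Each later BDL mean was lower, but no successive step passed the test. The day 1 fall was -1.70 without the 4 arrays that stood apart (limma adjusted p = 0.0122) and -0.78 within them, where the call was lost (limma adjusted p = 0.111).

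Sult1a1, which sulfonates phenols, rose by a smaller amount on every day. At day 1 its log2 values were 11.94, 11.63, 11.63, 11.94 and 11.51 in BDL livers, against 10.97, 10.67 and 10.58 in sham livers. At day 3 they were 12.14, 11.83, 12.00, 11.94 and 11.88 in BDL livers, against 11.49 and 10.49 in sham livers. At day 7 they were 11.51, 11.51, 11.41, 11.68 and 11.59 in BDL livers, against 11.30, 10.50, 10.86 and 10.57 in sham livers. The groups did not overlap, although sham day 3 replicate 1 and sham day 7 replicate 1 came close to the BDL livers. At day 21 the BDL livers had 12.26, 11.71, 12.02, 11.43 and 11.62, also above every sham liver of day 7.

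Sult1a1 was 1.99-fold higher in BDL at day 1 (log2 fold change 0.99 ± 0.19, limma adjusted p = 0.000691), 1.96-fold at day 3 (0.97 ± 0.22, limma adjusted p = 0.00389) and 1.66-fold at day 7 (0.73 ± 0.18, limma adjusted p = 0.00306). At day 21 against sham day 7 it was 2.00-fold higher (1.00 ± 0.18, limma adjusted p = 7.49e-05). The day 3 value rests on the 2 sham arrays: without sham day 3 replicate 2 it was 0.47 and was not called (limma adjusted p = 0.331), and without replicate 1 it was 1.47. The day 1 value was 1.13 without the 4 arrays that stood apart (limma adjusted p = 0.0427) and 0.85 within them (limma adjusted p = 0.0678, not called). BDL means were 11.73 ± 0.20, 11.96 ± 0.12, 11.54 ± 0.10 and 11.81 ± 0.33 at days 1, 3, 7 and 21 (SD, n = 5 each), and no successive step passed the test.

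Sult1b1, which sulfonates thyroid hormones and phenols, stood little above the filter level. At day 1 its log2 values were 5.30, 5.81, 5.58, 5.68 and 5.33 in BDL livers, against 5.50, 5.72 and 4.90 in sham livers. At day 3 they were 6.40, 5.75, 5.65, 5.82 and 6.35 in BDL livers, against 6.77 and 6.51 in sham livers. At day 7 they were 5.69, 5.77, 5.69, 5.74 and 5.72 in BDL livers, against 6.00, 6.34, 6.81 and 6.58 in sham livers. The groups overlapped at day 1 and did not at days 3 and 7. At day 21 the BDL livers had 6.25, 5.30, 5.46, 5.80 and 5.41, and the first of these, the liver with the intestinal messages, lay within the range of sham day 7.

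Sult1b1 was lower in BDL at day 7 (log2 fold change -0.71 ± 0.19, limma adjusted p = 0.00847) and at day 21 against sham day 7 (-0.79 ± 0.19, limma adjusted p = 0.00261). At day 21 without replicate 1 the difference was -0.94 (limma adjusted p = 0.000322). It did not pass at day 1 (0.16 ± 0.21, limma adjusted p = 0.689) or at day 3 (-0.65 ± 0.24, limma adjusted p = 0.0878). The sham level itself moved: the mean was 5.38 ± 0.43 at day 1 (SD, n = 3) and 6.43 ± 0.35 at day 7 (SD, n = 4), a difference of -1.06 ± 0.22 for day 1 minus day 7 (limma adjusted p = 0.0195). With all 9 sham arrays as the control, the day 7 and day 21 differences were -0.41 and -0.48 and were not called (limma adjusted p = 0.181 and 0.0968). The sham difference was not called without the 4 arrays (-0.71, limma adjusted p = 0.697), nor with them as a term of the model (-1.04, limma adjusted p = 0.198), nor without sham day 1 replicate 1 (-1.12), sham day 1 replicate 3 (-0.82) or sham day 7 replicate 3 (-0.93).

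Sult1d1, which in mice sulfonates catecholamines such as dopamine, had no called difference between BDL and sham in the fit over all arrays. Its log2 values ranged from 9.69 to 10.66 in BDL and from 8.44 to 9.87 in sham at day 1, from 10.49 to 11.18 and from 9.62 to 10.93 at day 3, and from 9.90 to 10.15 and from 9.53 to 9.89 at day 7. The 5 BDL livers of day 21 had 9.52 to 10.38. The groups overlapped at days 1, 3 and 21 and stood just apart at day 7. The differences were 0.76 ± 0.27 at day 1 (limma adjusted p = 0.0617), 0.46 ± 0.31 at day 3 (limma adjusted p = 0.414), 0.37 ± 0.25 at day 7 (limma adjusted p = 0.340) and 0.31 ± 0.25 at day 21 against sham day 7 (limma adjusted p = 0.404). The day 1 difference was -0.058 without the 4 arrays that stood apart and 1.36 within them, neither of them called. It was called under the stricter filter (0.76, limma adjusted p = 0.0490) and without sham day 1 replicate 2 (1.07, limma adjusted p = 0.0106), and with 1 array left out in turn it ranged from 0.35 to 1.07. At day 7 it was called with the compared arrays alone (0.37, limma adjusted p = 0.0193). Against all 9 sham arrays the day 3 difference was 1.06 and was called (limma adjusted p = 0.000873). Within BDL, Sult1d1 was higher at day 3 than at day 1 (0.73 ± 0.23, limma adjusted p = 0.0305), a call that was lost in 7 of 18 alternatives, with differences of 0.61 to 0.72 and limma's adjusted p of 0.0508 to 0.0890.

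**Figure D3:**
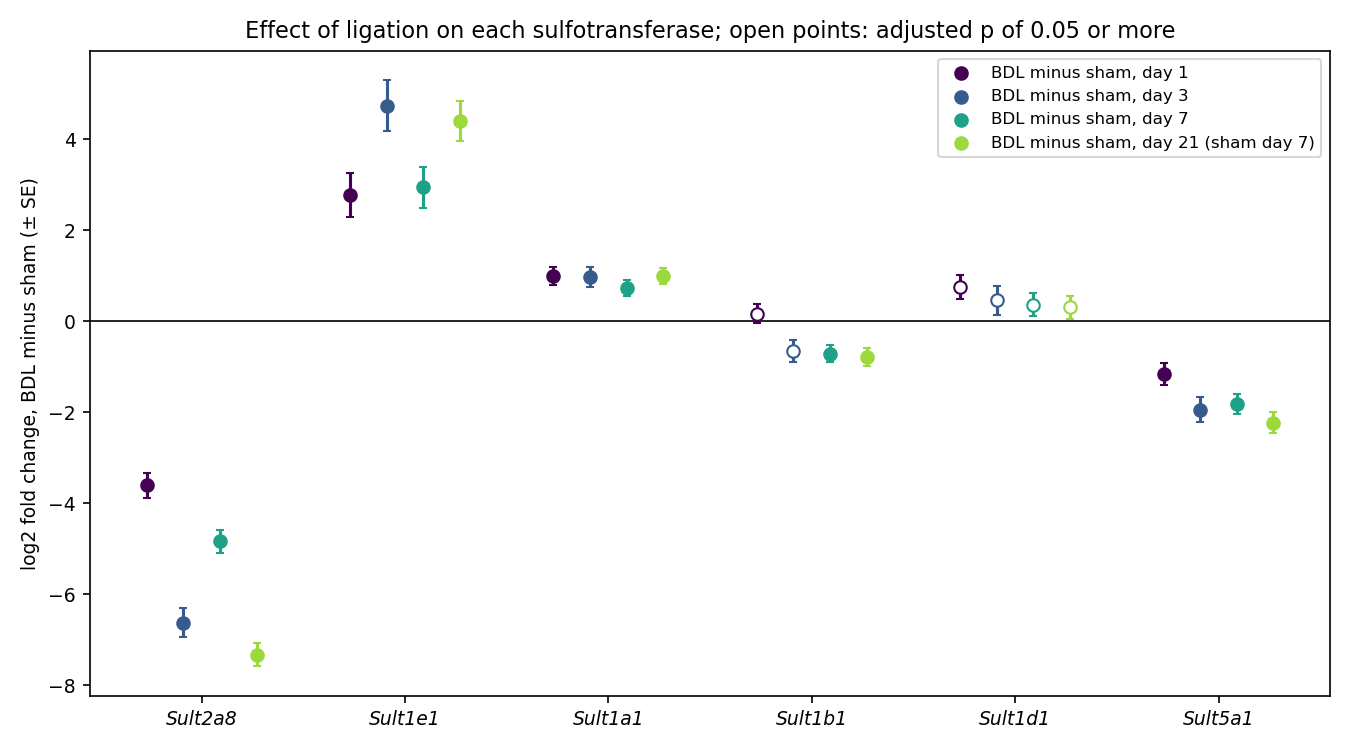
Log2 fold change of each sulfotransferase, BDL minus sham (points, with SE as bars), at days 1, 3 and 7 against sham of the same day and at day 21 against sham day 7; open points did not pass the adjusted p of 0.05. Points of Sult2a8 at days 3 and 21 and of Sult1e1 on all days are fitted with 1 group mean under the filter level. Their least sizes from the group means, without sampling error, are 6.16 and 6.02 lower, and 1.82 to 3.91 higher. The neighbours of Sult1e1 on chromosome 5, Sult1b1 and Sult1d1, stay between -0.79 and 0.76.

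Over the 6 enzymes, 4 were called at day 1, 2 higher and 2 lower, where 13.3% of the genes tested were called, 8.52% higher and 4.80% lower. At day 3 it was again 2 higher and 2 lower, where 10.2% of the genes tested were called, 6.47% higher and 3.69% lower. At day 7, 2 were higher and 3 lower, where 19.2% were called, 14.2% higher and 4.97% lower. For day 21 against sham day 7, 2 were higher and 3 lower, where 25.2% were called, 17.3% higher and 7.90% lower. The median of the 6 log2 fold changes was 0.46, -0.10, -0.17 and -0.24 at days 1, 3, 7 and 21, beside medians of 0.02, 0.02, 0.03 and 0.02 over all genes tested. The family had no common direction. The comparisons of days 7 and 21 share the sham day 7 arrays. Without sham day 7 replicate 1, the array with the collagen messages, no call of the 6 changed at days 7 and 21. Its absence gave Sult2a8 -5.01 and -7.51, Sult5a1 -2.11 and -2.52, and Sult1b1 -0.86 and -0.94 on these days. It gave Sult1e1 3.06 and 4.51, Sult1a1 0.90 and 1.17, and Sult1d1 0.37 and 0.31.

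Between BDL days 3 and 1, 3 of the 6 were called, Sult1e1 and Sult1d1 higher and Sult2a8 lower, against 18.5% of the genes tested. Between days 7 and 3, 2 were called, Sult2a8 higher and Sult1e1 lower, against 5.69%. Between days 21 and 7 it was Sult2a8 alone, lower, against 0.864%. Between sham days 1 and 7, 1 was called, Sult1b1, against 4.11%. Between sham days 3 and 7, limma called 0 of the 6 and 0% of all genes. At an unadjusted p under 0.05 it was 0 of the 6 and 627 genes. For the day 3 effect minus the day 1 effect, 1 of the 6 was called, Sult2a8, against 0.0748% of the genes tested. For day 7 minus day 1 limma called 0 of the 6, against 4.33%, and 2 of the 6 had an unadjusted p under 0.05, as had 2548 of 14699 genes. Without sham day 7 replicate 1 it called 2, Sult2a8 (-1.41, limma adjusted p = 0.0289) and Sult1b1 (-1.02, limma adjusted p = 0.0384).

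Of 15 other sulfotransferase genes with a row, 13 were under the filter and 2 were tested. Sult1c2 stood close to the filter level, with BDL means of 4.23, 4.37, 5.04 and 4.73 at days 1, 3, 7 and 21 against sham means of 4.90, 5.40 and 5.70 at days 1, 3 and 7. At day 1 both means were under it, so no direction is read from the fitted -0.66, which passed (limma adjusted p = 0.0437) but lost its call in 11 of 17 alternatives. It was lower in BDL at day 3 by a least size of 0.40 (fitted -1.03 ± 0.25, limma adjusted p = 0.00787), at day 7 (-0.66 ± 0.20, limma adjusted p = 0.0215) and at day 21 against sham day 7 by a least size of 0.70 (fitted -0.97 ± 0.20, limma adjusted p = 0.000595). Sult2a3 was called in none of the comparisons of BDL with sham. The 7 other Sult2a genes, the closest relatives of Sult2a8, had mean levels between 2.40 and 4.44 over all arrays. Sult6b2 stood at 6.12 on BDL day 21 replicate 1, the liver with the intestinal messages, and at no more than 4.35 on the other 28 arrays.

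Of 11 genes listed for the supply of the sulfate donor, 10 were tested. Of these, 2 were higher and 1 lower in BDL at day 1 (13.3% of all genes tested were called), 0 at days 3 and 7 (10.2% and 19.2%), and 1 higher and 1 lower at day 21 (25.2%). At an unadjusted p under 0.05, limma gave 3 of the 10 at day 3 and 1 at day 7. Papss1, a PAPS synthase, was higher by 0.59 ± 0.17 at day 1 (limma adjusted p = 0.0224) and by 0.52 ± 0.16 at day 21 (limma adjusted p = 0.0154). Without sham day 1 replicate 1 its day 1 value was 0.33 and was not called (limma adjusted p = 0.286). Bpnt2, a phosphatase of the spent donor, was higher by 0.34 ± 0.11 at day 1 (limma adjusted p = 0.0400). Slc26a1, a sulfate transporter, was lower, with -0.69 ± 0.21 at day 1 (limma adjusted p = 0.0245) and -0.52 ± 0.19 at day 21 (limma adjusted p = 0.0444). Of 4 genes tested from the sulfatase list (Arsa, Arsb, Sumf1 and Sumf2), only Arsa (arylsulfatase A), which removes sulfate, was called. It was higher at day 7 by 0.45 ± 0.16 (limma adjusted p = 0.0484), where 19.2% of all genes tested were called.

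**Figure D4:**
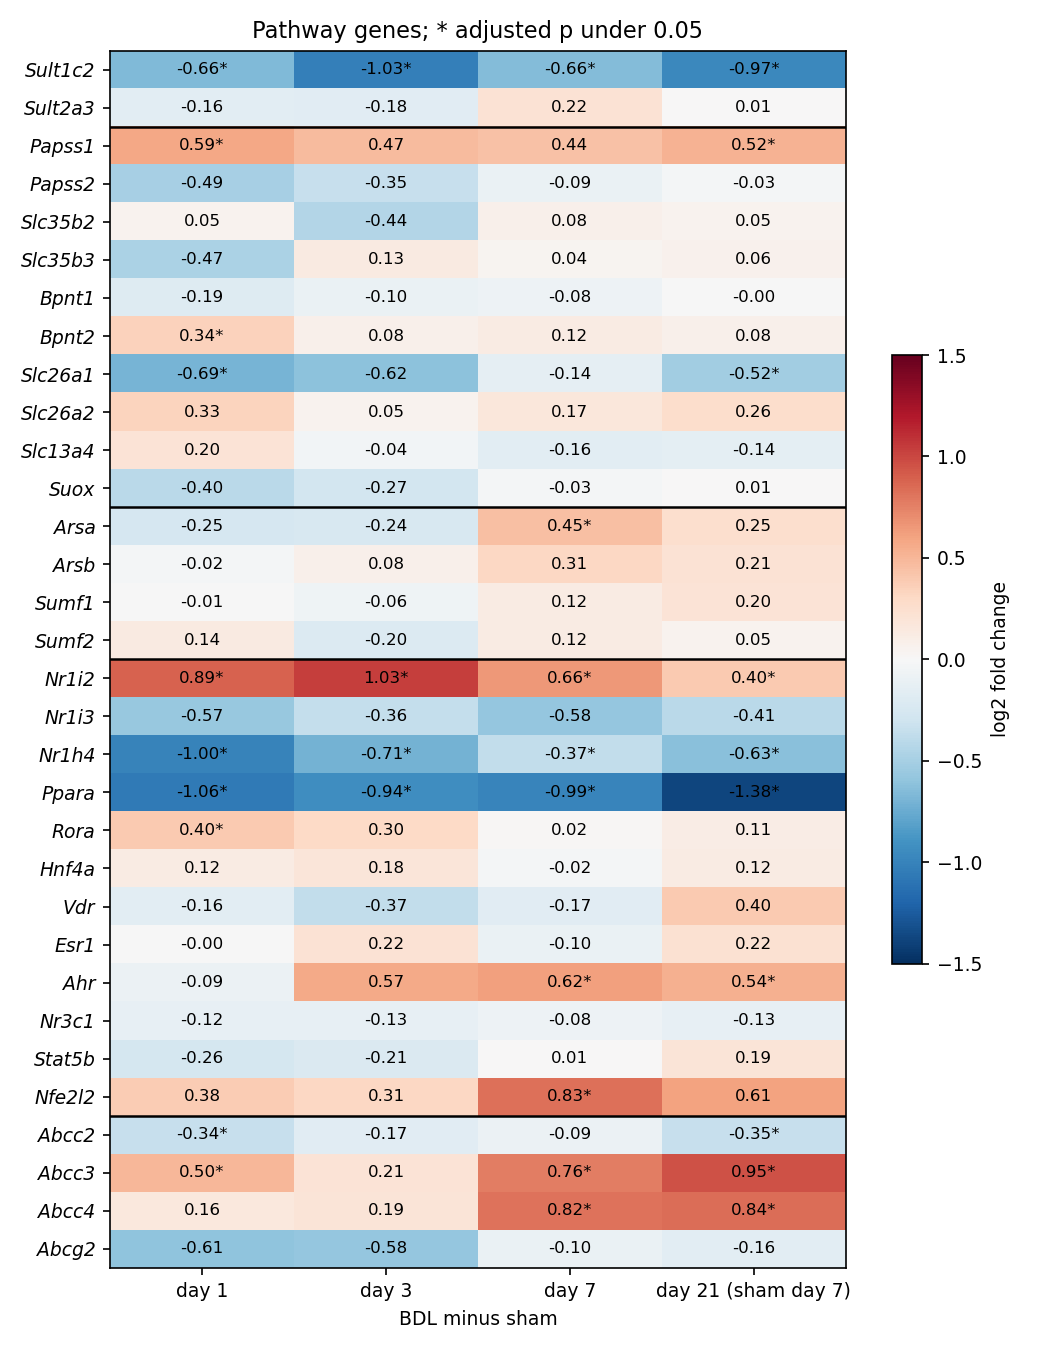
Log2 fold change, BDL minus sham, of Sult1c2, Sult2a3 and genes for donor supply, the sulfatase list, regulators and export (rows). Columns are days 1, 3 and 7 and day 21 against sham day 7. Colour gives the size and direction, and an asterisk an adjusted p under 0.05. Nr1i2 is higher and Nr1h4 and Ppara lower in all 4 columns. Sult1c2 also has an asterisk in all 4, but at day 1 both its group means are under the filter level.

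Of 12 regulators of these enzymes, all tested, 2 were higher and 2 lower in BDL at day 1, 1 and 2 at day 3, 3 and 2 at day 7, and 2 and 2 at day 21, beside 13.3%, 10.2%, 19.2% and 25.2% of all genes tested called on these days. Nr1i2, the pregnane X receptor, was higher by 0.89 ± 0.15, 1.03 ± 0.17, 0.66 ± 0.14 and 0.40 ± 0.14 at days 1, 3, 7 and 21, with limma's adjusted p of 0.0353 at day 21 and no more than 0.000960 before. Nr1h4, the bile acid receptor FXR, fell by 1.00 ± 0.13 at day 1 and was also lower at days 3, 7 and 21 (-0.71 ± 0.15, -0.37 ± 0.12 and -0.63 ± 0.12), with limma's adjusted p at most 0.0264. Its effect at day 7 was smaller than at day 1 (difference 0.63 ± 0.18, limma adjusted p = 0.0364), a call that was lost in 11 of 25 alternatives. Ppara, a receptor for fatty acids, was lower on the 4 days (-1.06 ± 0.16, -0.94 ± 0.18, -0.99 ± 0.14 and -1.38 ± 0.14), with limma's adjusted p at most 0.000886. Rora, an orphan receptor, was higher at day 1 (0.40 ± 0.12, limma adjusted p = 0.0217). Ahr, the aryl hydrocarbon receptor, was higher at days 7 and 21 (0.62 ± 0.20 and 0.54 ± 0.20), and Nfe2l2, the oxidative stress factor NRF2, at day 7 (0.83 ± 0.24), with limma's adjusted p at most 0.0461.

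Of 5 exporters of sulfate conjugates, 4 were tested. In BDL 1 was called higher and 1 lower at day 1, 0 at day 3, 2 higher at day 7, and 2 higher and 1 lower at day 21. Of all genes tested, 13.3%, 10.2%, 19.2% and 25.2% were called on these days. Abcc3 (MRP3), which pumps conjugates into the blood, was higher in BDL at day 1 (0.50 ± 0.14, limma adjusted p = 0.0167), day 7 (0.76 ± 0.13, limma adjusted p = 7.75e-05) and day 21 (0.95 ± 0.13, limma adjusted p = 1.94e-06). Abcc4 (MRP4), also a pump into the blood, was higher at day 7 (0.82 ± 0.15, limma adjusted p = 0.000157) and day 21 (0.84 ± 0.15, limma adjusted p = 7.82e-05). Abcc2 (MRP2), which pumps conjugates into bile, was lower at day 1 (-0.34 ± 0.11, limma adjusted p = 0.0365) and day 21 (-0.35 ± 0.10, limma adjusted p = 0.0103). None was called at day 3, where 1 of the 4 had an unadjusted p under 0.05 in limma. Of the 34 differences of these other sulfotransferases, donor, sulfatase, regulator and exporter genes given here, 13 kept their call under every alternative tried, those of Sult1c2 at day 21, Nr1i2 at days 3 and 7, Nr1h4 at days 1 and 21, Ppara on all days, and Abcc3 and Abcc4 at days 7 and 21. Without the 4 arrays that stood apart, which leaves 1 sham array, day 1 kept only the calls of Nr1h4 and Ppara among these genes. Among those that lost it, Papss1 was at 0.60, Abcc2 at -0.36, Slc26a1 at -0.58 and Nr1i2 at 0.59 (limma adjusted p = 0.153 to 0.290), while Abcc3 was at 0.31 (limma adjusted p = 0.438). Without sham day 3 replicate 1, Nr1h4 at day 3 was at -0.49 (limma adjusted p = 0.129), and without sham day 7 replicate 1, Ahr was at 0.39 at day 7 (limma adjusted p = 0.174) and at 0.31 at day 21 (limma adjusted p = 0.266). Without that array Slc26a1 (-0.50) and Nr1i2 (0.35) also lost their day 21 calls (limma adjusted p = 0.0940 and 0.100).

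The genes whose log2 values over the 29 arrays followed each enzyme most closely are given as a description, since all these points share the ligation contrast. Sult2a8 was most like Slco1a1, an uptake transporter of organic anions (Pearson r = 0.976), then Elovl3 (0.939), a fatty acid elongase, and Epb41l4b (0.937). Sult5a1 was also close to Slco1a1 (0.917), with Mup-ps12 at 0.926 and Hsd3b5 at 0.915. The mean levels of Mup-ps12 (4.49) and Hsd3b5 (4.97) over the 29 arrays lie under the filter level. Sult1e1 was most like Ctps (0.920), Coq8b (0.910) and Mmp7 (0.906), a matrix metalloproteinase. Sult1a1 was most like Slc16a5 (0.903), Cnn3 and Cers6 (0.898 each). The values were lower for Sult1d1, led by Gfra1 (0.853), Adarb1 (0.838) and Coa6 (0.824), and for Sult1b1, led by Slc25a16 (0.793), Urah (0.786) and Ube2q2 (0.785).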

How the data were processed

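RNA of 29 livers was measured on arrays. As deposited, values are in log2 units, and the submitters' processing notes list oligo 1.52.0 and RMA, which corrects background, equalises the arrays' distributions and combines the probes of each row. Per the labels' protocols the arrays are of the Mouse Genome 430 2.0 design, while row identifiers match the Mouse Gene 2.0 ST annotation, which gave the gene names. A genome build is not stated. Where several rows carried 1 gene, the row with the highest mean stands for it.

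Group means were estimated from all 29 arrays at once with lmFit and eBayes in limma 3.58.1 under R 4.3.3. Two-sided p-values were adjusted by Benjamini-Hochberg over 14699 genes, with a threshold of 0.05. Differences are of log2 group means, first-named group minus second. The treatment and time labels give the groups. Since each title has an animal number of its own, p-values reflect the variation among these mice. An array has no depth, and precision is limited by how many there are: the median SE was 0.151, 0.173, 0.138 and 0.138 for days 1, 3, 7 and 21.

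The enzymes and gene lists were chosen with earlier results of these data known. All 6 enzymes were named in every comparison between BDL and sham, the other genes where they passed the threshold in such a comparison, and for likeness the 3 genes of highest Pearson r. Sts was not analysed here. Alternatives were other filters, the mean of a gene's rows, cyclic loess, a trended robust variance, the compared arrays alone, all sham arrays as control, the 4 day 1 arrays as a term, left out or alone, and each array left out. For the genes of the other lists these alternatives were added after seeing the data. On simulated data with 200 of 14699 genes changed, a log2 change of 1 was called for 91% of genes at day 1, 88% at day 3, 93% at day 7 and 92% at day 21. These data were independent normal values with 1 spread per gene, and the 4 day 1 arrays were not made to stand apart. The shares therefore do not show how often such a change is called on the real arrays.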

Additional observations from a re-analysis of the deposited data

Results flagged for a closer look

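The effect of BDL on Sult2a8 was larger at day 3 than at day 1, with a difference of -3.02 that passed the test of the difference itself (limma adjusted p = 0.000999). That of Nr1h4 was smaller at day 7 than at day 1, with a difference of 0.63 (limma adjusted p = 0.0364). The call for Nr1h4 was lost in 11 of 25 alternatives, over which the difference ranged from 0.53 to 0.73.

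Of 105 groups of 4 or 5 arrays over the 21 sulfotransferase genes, 5 held an array far from the others, about the 1 in 20 that chance gives. None of the 5 was a group of the 6 enzymes described above. Sult6b2 stood at 6.12 on BDL day 21 replicate 1, with the next array at 3.90, and at 3.51 on BDL day 3 replicate 2, with the next at 3.79. Sult1c1 stood at 3.14 on sham day 7 replicate 4, with the next at 3.59. Sult3a1 stood at 2.70 on BDL day 21 replicate 4, with the next at 2.34, and Sult3a2 at 3.51 on BDL day 3 replicate 2, with the next at 2.81. Apart from the 6.12 of Sult6b2, these values lie under the filter level.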

How the results depend on the processing

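Of 1134 values of the 6 enzymes under alternatives, 1064 kept their direction and their side of the threshold, 19 lost a call, 14 gained one and 37 turned direction. Of those that turned, 0 were called in either setting. Sult2a8, Sult1e1 and Sult5a1 at days 3, 7 and 21 and Sult2a8 at day 1 kept their calls under every alternative run. Of the 37, 31 are sham differences, steps between BDL days and differences of effects whose values the report does not give. The other 6, with the cause not tested, were Sult1b1 at day 1 (-0.59 against all 9 sham arrays, -0.29 without the 4 day 1 arrays that stood apart, and -0.075 to 0.34 with 1 array left out), Sult1d1 at day 1 (-0.058 without those 4 arrays) and day 3 (-0.20 to 1.11 with 1 array left out), and Sult2a8 between sham days 1 and 7 (0.038 without the 4 arrays). Of 561 values of the genes of the other lists, 438 kept their call, 123 lost it and 0 turned.

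Counts of calls moved with the samples in the fit. With the compared arrays alone, fewer samples gave 704 of 14699 genes at day 1 (main value 1958), 921 at day 3 (1493), 1779 between BDL days 3 and 1 (2715), 235 between days 21 and 7 (127), and 0 genes and 0 enzymes between sham days 1 and 7 (604 and 1), but 4 enzymes between BDL days 7 and 3 (2). Against all 9 sham arrays it was 3198 genes at day 1, 3481 at day 3 and 4375 at day 7 (2819). With the 4 arrays as a term it was 1479 genes between BDL days 3 and 1, 1 gene and 0 enzymes between sham days 1 and 7, and 65 and 1076 genes for the effects of day 3 and of day 7 minus that of day 1 (11 and 637). Without these arrays it was 597 genes at day 1, 1444 between BDL days 3 and 1, 1 gene and 0 enzymes between sham days, and 4 and 287 genes for the differences of effects. Within them it was 407 genes and 2 enzymes at day 1. The stricter filter gave 78 genes between BDL days 21 and 7 and 1 enzyme, Sult2a8, for the day 7 minus day 1 effect (0). Cyclic loess gave 22 genes for the day 3 minus day 1 effect, and split the calls of day 1 into 1109 higher and 995 lower, against 1252 and 706, and those between sham days 1 and 7 into 184 and 281, against 169 and 435.

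With each array left out in turn, the genes called were 1268 to 2750 at day 1 (lowest without sham day 1 replicate 1), 668 to 1692 at day 3 (lowest without sham day 3 replicate 2), 1718 to 3054 between BDL days 3 and 1 (lowest without BDL day 1 replicate 3), 472 to 964 between days 7 and 3 (lowest without BDL day 7 replicate 5) and 59 to 133 between days 21 and 7 (lowest without BDL day 7 replicate 3). They were 2 to 3040 between sham days 1 and 7 (without sham day 1 replicates 3 and 2), 0 to 35 between sham days 3 and 7, and 7 to 109 for the day 3 minus day 1 effect. Enzymes called were 0 to 1 between sham days 1 and 7 and 0 to 2 for the day 7 minus day 1 effect, 2 without sham day 7 replicate 1. No paired analysis was possible because each array is a mouse of its own and the labels name no pairs. The brightness limits what can be said of Sult2a8 at days 3 and 21, of Sult1e1 in sham and in part of Sult5a1 in BDL at day 21. Values under the filter level are treated there as not told apart from background.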
